A study of Homo sapiens with 16 samples.

Results

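The neurotrophin receptor-associated gene BEX3 was close to off in 6 of 16 human leukemia lines and strongly expressed in the other 10. The 6 BEX3-silent lines were ALL-SIL, DU528, KOPT-K1, MOLT-16, SUP-T13 and TALL-1. The 10 BEX3-expressing lines were CCRF-CEM, HSB-2, JURKAT, LOUCY, MOLT-4, P12-ICHIKAWA, PEER, PF-382, SKW-3 and SUP-T11. The lines were chosen by the measured BEX3 level itself: a line was silent below an intensity of 20 and expressing above 2600 on the single BEX3 probe set of the array. BEX3 values are therefore descriptions and were not tested. In the silent lines BEX3 read 10.2 in ALL-SIL, 19.5 in DU528, 14.4 in KOPT-K1, 13.4 in MOLT-16, 8.10 in SUP-T13 and 9.80 in TALL-1, all below the median of all values in the table, 42.4. In the expressing lines it ran from 2664 in SKW-3 to 9239 in LOUCY, with a median of 6767. The members nearest the limits were DU528 at 19.5 on the silent side, and SKW-3 at 2664 and HSB-2 at 5276 on the expressing side, so no line lay between.

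All lines were established from T-ALL (acute lymphoblastic leukemia of the T-cell lineage, which arises in developing thymocytes). Each was grown without treatment at a common density and harvested after 24 hours. Total RNA of each was read on 1 Affymetrix U133 Plus 2.0 array, a microarray that measures each gene with 1 or more probe sets. The labels put all 16 lines in 1 group and give no genotype, treatment or batch that separates them. No line was measured more than once, so the spread is that between different lines. Every p-value sets a difference between the sides against that spread, and the number of arrays limits the precision. All 16 lines carried T-lineage RNA: 5 of 6 T-lineage markers (CD3 chains, CD7, CD247 and LCK) lay above 4 times the table median in every line. The summed level of these markers ran from 10475 to 38811 in silent lines and from 23975 to 37657 in expressing lines. Of other markers, 2 of 4 B-cell, 1 of 5 myeloid and 2 of 3 erythroid and megakaryocytic ones exceeded 4 times the table median in lines of each side. So did 1 of 5 neuronal and 1 of 4 stromal markers in silent lines only. None of these markers did so in all 16 lines. In cultures read as a whole, fewer cells with a transcript and less of it per cell cannot be told apart.

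BEX3, also called NGFRAP1 or NADE, encodes a small cytoplasmic adaptor that binds the p75 neurotrophin receptor and can take part in cell death that this receptor triggers. It belongs to the brain-expressed X-linked (BEX) family, which lies together with the transcription elongation factor A-like (TCEAL) and the armadillo-repeat ARMCX genes on the long arm of the X chromosome at Xq22. Genes of the BEX family are strongly expressed in brain and are switched on or off in several cancers, and promoter methylation is a known way in which BEX genes are silenced in tumours.

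The promoters of BEX3 and of the genes that the comparison turned on are shown first, because their position and CG content were not used to choose the lines. DNA methylation was not measured. Each window holds 250 bases before and 50 from the annotated start, from RefSeq on build GRCh38.p14, written 5' to 3' along the gene's strand, with CG (the same letters on both strands) in capitals. RefSeq gives BEX3 3 start windows, at chrX:103376073-103376372, chrX:103376288-103376587 and chrX:103376788-103377087 on the plus strand, with 7, 23 and 32 CG in that order. The median over all 35116 windows of this length was 14. At least as many CG were held by 63.2% of them for the most upstream BEX3 window, 35.8% for the middle and 18.9% for the most downstream one. The upstream window, which is poorer in CG and partly overlaps the middle one, is not printed.
BEX3 middle start: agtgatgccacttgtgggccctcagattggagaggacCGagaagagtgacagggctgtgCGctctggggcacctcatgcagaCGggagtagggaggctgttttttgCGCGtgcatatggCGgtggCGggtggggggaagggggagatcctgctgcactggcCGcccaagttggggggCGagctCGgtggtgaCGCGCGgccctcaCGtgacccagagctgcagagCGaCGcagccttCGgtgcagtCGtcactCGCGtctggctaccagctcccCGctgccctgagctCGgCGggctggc
BEX3 downstream start: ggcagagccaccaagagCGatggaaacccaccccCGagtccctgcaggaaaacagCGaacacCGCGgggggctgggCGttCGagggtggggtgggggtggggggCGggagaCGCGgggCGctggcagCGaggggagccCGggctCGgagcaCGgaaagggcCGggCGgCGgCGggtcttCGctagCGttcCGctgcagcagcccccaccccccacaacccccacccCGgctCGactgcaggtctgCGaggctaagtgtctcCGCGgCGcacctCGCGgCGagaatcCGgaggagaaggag
The next 3 windows belong to the genes that passed the test described further on, namely TCEAL9 at chrX:103356256-103356555, MAP3K21 at chr1:233327474-233327773 and PPM1E at chr17:58755619-58755918, all on the plus strand. They held 10, 29 and 37 CG, and 56.4%, 24.2% and 11.3% of all windows held at least as many.
TCEAL9: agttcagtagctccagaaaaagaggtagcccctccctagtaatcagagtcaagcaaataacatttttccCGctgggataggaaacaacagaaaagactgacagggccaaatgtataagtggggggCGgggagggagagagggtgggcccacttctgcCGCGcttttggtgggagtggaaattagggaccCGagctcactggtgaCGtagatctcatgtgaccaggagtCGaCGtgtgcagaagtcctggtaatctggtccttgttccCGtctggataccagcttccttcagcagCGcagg
MAP3K21: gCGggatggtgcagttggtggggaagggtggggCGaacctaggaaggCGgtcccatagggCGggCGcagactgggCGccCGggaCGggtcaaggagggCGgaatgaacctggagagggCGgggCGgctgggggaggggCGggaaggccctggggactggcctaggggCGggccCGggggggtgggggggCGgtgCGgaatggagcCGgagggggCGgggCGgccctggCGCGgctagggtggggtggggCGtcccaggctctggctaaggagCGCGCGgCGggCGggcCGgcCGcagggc
PPM1E: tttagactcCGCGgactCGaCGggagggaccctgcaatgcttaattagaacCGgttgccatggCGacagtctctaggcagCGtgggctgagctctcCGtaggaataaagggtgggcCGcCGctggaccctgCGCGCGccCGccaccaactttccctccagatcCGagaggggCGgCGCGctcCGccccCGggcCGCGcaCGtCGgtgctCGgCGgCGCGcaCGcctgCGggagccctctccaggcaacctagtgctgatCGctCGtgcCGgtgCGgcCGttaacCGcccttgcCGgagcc
The last is TCEAL8, a neighbour that was expressed on both sides, at chrX:103255106-103255405 on the minus strand, with 14 CG.
TCEAL8: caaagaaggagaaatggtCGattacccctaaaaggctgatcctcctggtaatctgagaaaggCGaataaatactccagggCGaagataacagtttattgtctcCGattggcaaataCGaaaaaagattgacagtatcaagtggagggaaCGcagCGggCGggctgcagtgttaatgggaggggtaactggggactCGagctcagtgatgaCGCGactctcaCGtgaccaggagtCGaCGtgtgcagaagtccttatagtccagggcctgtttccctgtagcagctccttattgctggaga

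The BEX and TCEAL windows shared stretches of identical sequence, shown here because they link the promoters of several family members. TCEAL8 and TCEAL9 shared 31 bases, found in 3 of all windows, the third being that of an uncharacterised locus. BEX1 and BEX3 shared 35 bases, and BEX2 and BEX4 shared 45. TCEAL2 and TCEAL3 shared 38, found in 4 of all windows, the others being those of TCEAL6 and the locus LOC105373299.
TCEAL8 and TCEAL9: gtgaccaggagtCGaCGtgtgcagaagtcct
BEX1 and BEX3: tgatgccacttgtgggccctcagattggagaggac
The letters CACGTG, which read the same on both strands and hold 1 CG, were searched after these sequences had been seen. They occurred in a window of 9 of the 11 BEX and TCEAL genes looked up that had a window (BEX1, BEX2, BEX3, BEX4, TCEAL1, TCEAL2, TCEAL3, TCEAL4 and TCEAL8), against 8.77% of all genes with a window and 7.26% of all single windows. TCEAL5 and TCEAL6 were not looked up. TCEAL1 and TCEAL8 shared a stretch of 16 bases that holds these letters. The 9 genes are thus not independent, and the shares are a description. In BEX3 they lay in the middle window. They were not found in the windows of TCEAL9, BEX5, MAP3K21 or PPM1E. TCEAL8, expressed on both sides, held them, and TCEAL9, lower in silent lines, did not. Whether these letters bear on expression was not tested.

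The first comparison asked which other genes differed between the silent and the expressing lines. All 3 genes that passed the genome-wide test were lower in the silent lines: TCEAL9, the direct neighbour of BEX3, MAP3K21 on chromosome 1 and PPM1E on chromosome 17. A gene was tested if at least 3 lines exceeded the table median. Each of the 3 read below that median in all silent lines and so entered the test only through expressing lines. Their shared direction is therefore no support by itself. With no such filter the same 3 genes were called. Of 13311 genes tested with limma on log2(intensity + 16), 3 were lower in silent lines at an adjusted p below 0.05, which is 0.0225% of them, and 0 were higher (0%). At an unadjusted p below 0.05, limma gave 706 genes (5.30%), of which 411 were lower (3.09%) and 295 higher (2.22%). All differences below are silent minus expressing on this log2 scale with the standard error of the fit, and they understate the change of genes near 0 intensity. No gene lay below the table median in all lines of one side and above 4 times that median (169) in all lines of the other, so BEX3 had no partner with an equally complete on and off pattern.

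TCEAL9, a member of the TCEAL family also known as WBP5, read 14.5 in ALL-SIL, 17.5 in DU528, 27.2 in KOPT-K1, 28.9 in MOLT-16, 18.1 in SUP-T13 and 18.3 in TALL-1. In expressing lines it read 19.4 in SKW-3, and from 959 to 3035 in the other 9. All silent lines and SKW-3, the expressing line with the lowest BEX3, were thus below the table median, and the sides overlapped through SKW-3 alone. The difference was -5.21 ± 0.75 (limma adjusted p = 0.02), and -5.80 without SKW-3.

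MAP3K21, a mixed-lineage kinase of the MAP kinase cascades also known as MLK4, ran from 4.42 to 36.8 (median 9.30) in BEX3-silent lines, against 64.6 to 429 (median 256) in BEX3-expressing lines. MOLT-16 was the highest silent line and P12-ICHIKAWA the lowest expressing line, and the sides did not overlap. It fell by 2.89 ± 0.42 (limma adjusted p = 0.02). PPM1E, a protein phosphatase that acts on PAK kinases and on calmodulin-dependent kinases, ran from 4.09 to 15.8 (median 9.57) in BEX3-silent lines, against 46.4 to 432 (median 209.5) in BEX3-expressing lines, again without overlap. The difference was -2.89 ± 0.43 (limma adjusted p = 0.02). A second PPM1E probe set ran from 7.44 to 30.1 in silent lines, against 12.02 to 129 in expressing lines, and there the sides overlapped. The calls depend on single lines and on the setting: without DU528 and LOUCY, and in 6 of 16 fits that left out 1 line, none of the 3 genes passed, with adjusted p up to 0.12 and up to 0.090. On log2(intensity + 64) MAP3K21 (-1.83, limma adjusted p = 0.17) and PPM1E (-1.75, adjusted p = 0.18) did not pass, and PPM1E did not pass on the mean of its probe sets (-1.88, adjusted p = 0.17). The differences kept their direction in all of these fits.

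**Figure D1:**
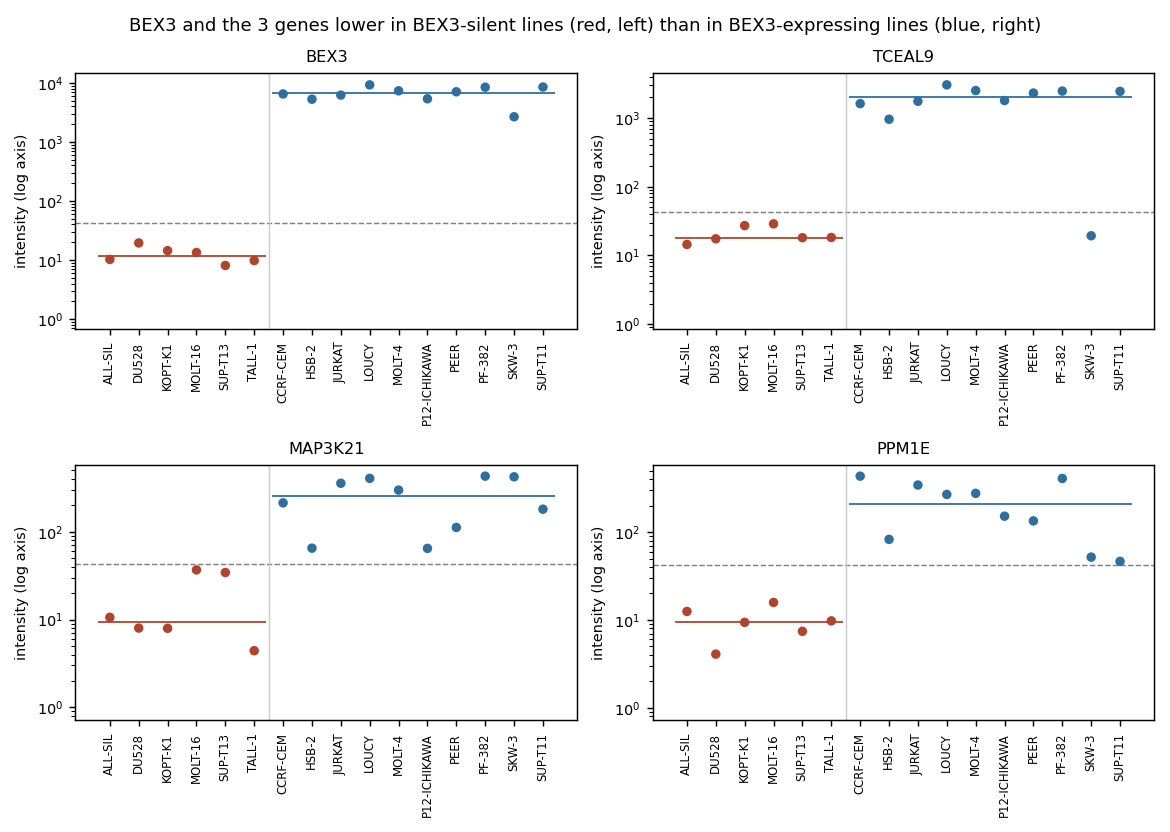
Intensity on a log10 axis of BEX3 and of the genes called between the sides, with 1 point per line, BEX3-silent lines at left in each panel and BEX3-expressing lines at right. Solid lines mark the median of each side and the dashed line the table median of 42.4. BEX3 chose the sides, and for TCEAL9 the low expressing point is SKW-3 at 19.4.

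**Figure D2:**
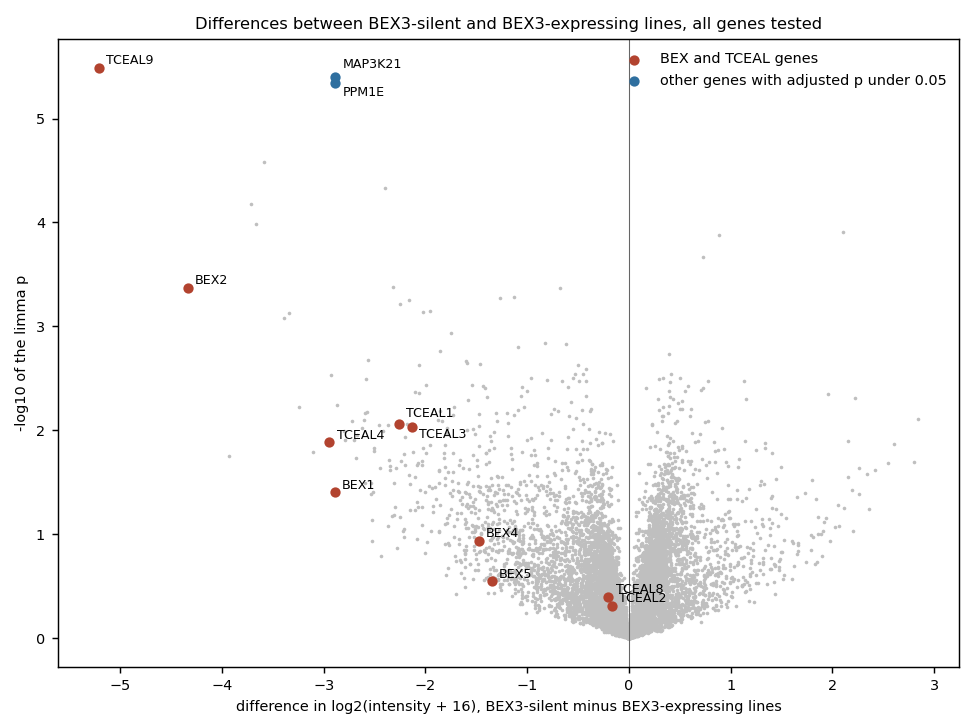
Difference of BEX3-silent minus BEX3-expressing lines in log2(intensity + 16) (x axis) against the negative log10 of the unadjusted limma p (y axis) for the 13311 genes tested, with BEX and TCEAL genes in red. TCEAL9, MAP3K21 and PPM1E, all lower in silent lines, are the genes with an adjusted p below 0.05.

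Within the BEX family the other 4 members all had differences below 0, with a median of -2.18, against 0.0089 over all genes tested, of which 48.3% lay below 0. None was called, and BEX1 and BEX2 reached an unadjusted limma p below 0.05, a limit at which 3.09% of all genes were lower. BEX2, a relative of BEX3 with roles in survival signalling, ran from 4.15 to 29.9 (median 8.04) in BEX3-silent lines, against 2.82 to 5392 (median 892) in BEX3-expressing lines. All 6 silent lines were below the table median, as was 1 expressing line, LOUCY at 2.82, and P12-ICHIKAWA read 60.4. BEX2 therefore entered the test only through expressing lines, so its direction lends the family count no support. The difference was -4.34 ± 0.98 (limma adjusted p = 0.44), and without LOUCY it passed the test at -4.87. BEX1, a close sequence relative of BEX2, was at 28.5 to 62.7 in silent lines. In expressing lines it was either high, from 892 in HSB-2 to 6903 in PF-382 over 5 lines, or as low as in silent lines, from 24.4 to 38.1 over the other 5. BEX4, a member linked to microtubules, was present in most lines of both sides (median of 1255 in silent and 2194 in expressing lines, a difference of -1.47 ± 0.89), and was lowest in silent MOLT-16 at 15.1 and ALL-SIL at 100.3. BEX5 was at 2.78 to 13.6 in 5 silent lines and 2585 in MOLT-16, against a median of 113 in expressing lines. Whether probes of one BEX gene also bind transcripts of another was not tested.

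The TCEAL family, relatives of the elongation factor TFIIS, had differences below 0 in all 6 members tested, with a median of -2.20. Beside TCEAL9, 3 members (TCEAL1, TCEAL3 and TCEAL4) reached an unadjusted p below 0.05 without being called, against the same 3.09% of all genes. TCEAL9 was tested only through expressing lines, so its direction lends the family count no support. TCEAL4 ran from 2.82 to 1912 (median 178) in BEX3-silent lines, against 28.1 to 2292 (median 1323) in BEX3-expressing lines, with TALL-1 the highest silent line and SKW-3 the lowest expressing line. Its difference was -2.94 ± 1.05 (limma adjusted p = 0.94). TCEAL1, first described as a regulator of viral promoters, had a median of 165 in silent and 703 in expressing lines, a difference of -2.26 ± 0.76, and TCEAL3 a median of 12.8 in silent and 231 in expressing lines, a difference of -2.13 ± 0.72. In both the sides overlapped. TCEAL8 was expressed in every line: it ran from 363 to 1576 (median 1091) in BEX3-silent lines, against 870.1 to 1299 (median 1141) in BEX3-expressing lines, a difference of -0.20 ± 0.23 that changed sign without ALL-SIL. TCEAL2 stayed near the table median on both sides, at 23.4 to 58.8 in silent and 24.2 to 119 in expressing lines. TCEAL7 was not tested, since its values were 3.57 to 17.1 in silent and 2.21 to 12.6 in expressing lines. TCEAL5 and TCEAL6 were not analysed here.

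Read line by line, 1 to 4 of the 11 measured BEX and TCEAL genes other than BEX3 exceeded 4 times the table median in each silent line (median 3), against 3 to 9 in each expressing line (median 8). SKW-3 was the expressing line with 3. In SKW-3 not only BEX3 was the lowest of the expressing lines. TCEAL9 at 19.4 and TCEAL4 at 28.1 were the lowest as well, far below the other expressing lines. So were TCEAL3 at 8.84, BEX1 at 24.4 and BEX4 at 383, but other expressing lines were close. TCEAL3 read 18.5 in P12-ICHIKAWA, BEX1 27.9 in PEER and BEX4 403 in JURKAT. BEX2, BEX5, TCEAL1, TCEAL2 and TCEAL8 were not lowest in SKW-3. Among silent lines KOPT-K1, SUP-T13 and TALL-1 had 4 such genes each: TCEAL1 was 696 in KOPT-K1, and TCEAL4 was 1912 and BEX4 2556 in TALL-1.

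**Figure D3:**
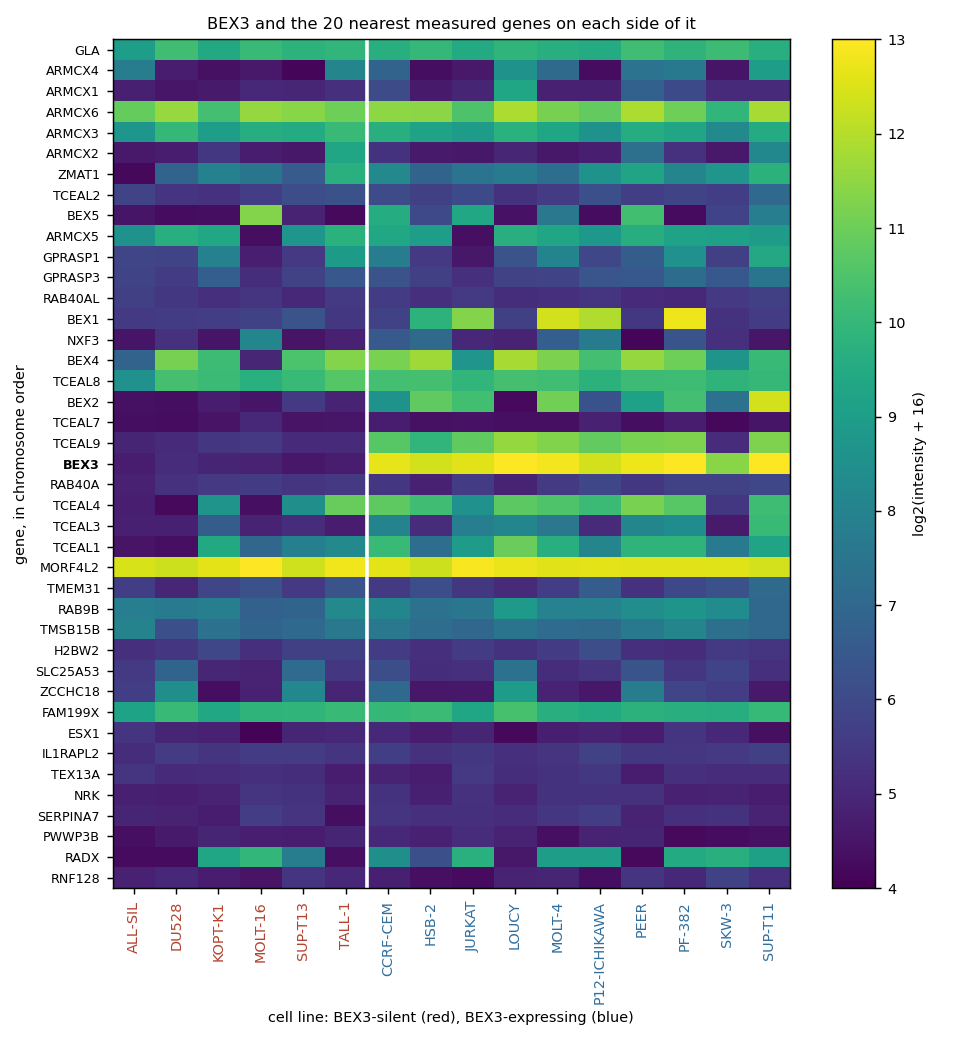
Neighbours of BEX3 on the X chromosome in annotation order (not to scale of distance), as a heat map coloured by log2(intensity + 16), with the 6 BEX3-silent lines in the columns left of the white line and the 10 BEX3-expressing lines right of it. TCEAL9 next to BEX3 is dark in all silent lines and in SKW-3, and TCEAL8 is bright on both sides.

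Position on the X chromosome, which the choice of lines did not use, was described next. Of the 8 tested genes among the 5 nearest measured on each side of BEX3, 1 was called and 5 had an unadjusted p below 0.05, all lower in silent lines, with a median difference of -2.20. Widening this to 20 genes on each side gave 29 tested genes, the same 1 called, 6 lower and 0 higher at an unadjusted p below 0.05, and a median of -0.38. These lower genes were 62.5% of the 8 and 20.7% of the 29. The 6 were BEX1, BEX2, TCEAL1, TCEAL3, TCEAL4 and TCEAL9, the same BEX and TCEAL genes counted above by family. Of these, BEX2 and TCEAL9 entered the test only through expressing lines, so their direction lends these counts no support. No other tested neighbour reached that limit, so position and family membership cannot be told apart here. On the whole X chromosome, 411 protein-coding genes were tested, 1 was called and 14 (3.41%) were lower and 5 (1.22%) higher at that limit. On the other chromosomes 396 (3.08%) were lower and 290 (2.26%) higher of 12851 genes. The X chromosome as a whole was near that background, with a median of -0.033, against 0.010 over the other chromosomes. Within the block, RAB40A, a small GTPase gene next to BEX3, was below the level needed for testing, with a median of 27.5 in silent and 30.6 in expressing lines. MORF4L2, a chromatin factor of the MRG family beyond TCEAL1, read 5019 to 8639 in silent and 5049 to 7737 in expressing lines, and its difference of 0.00912 changed sign with quantile normalization. RAB40A and MORF4L2 were chosen after their values were seen.

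The ARMCX and GPRASP genes further along, which encode armadillo-repeat proteins of mitochondria and proteins that sort G protein-coupled receptors, had 0 of 9 members called and 0 at an unadjusted limma p below 0.05. Their median was -0.33, with 7 members below 0 and 2 above. ARMCX3, which acts in mitochondrial transport, had a median of 742 in silent and 622 in expressing lines, a difference of 0.27 ± 0.25, and ARMCX6 was between 1255 and 3094 in silent and between 962 and 3766 in expressing lines. ARMCX1 was at 7.35 to 22.1 in silent lines, and in expressing lines LOUCY alone was far higher, at 614. ARMCX2 was 625 in TALL-1 and low in the other silent lines, and ARMCX4 had 257 in TALL-1 and 205 in ALL-SIL, with low values in the other 4 lines and with differences of 0.14 and -0.81. ARMCX5 read 4.09 in the silent line MOLT-16 and 4.60 in the expressing line JURKAT, and from 371 to 842 in the other silent lines and 427 to 781 in the other expressing lines. GPRASP1 and GPRASP3 differed by -0.38 ± 0.76 and -0.37 ± 0.32, and ARMC10, the autosomal relative on chromosome 7, by -0.14 ± 0.18.

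Next to the called genes stood 12 others with differences below 0 and the smallest p-values, BEX2 among them, none of which passed. C1orf21, a gene of little known function, read 4.57 to 12.4 in 5 silent lines but 548 in MOLT-16, against 169.9 to 1225 in expressing lines. Its difference was -3.59 ± 0.61 (limma adjusted p = 0.087), and without MOLT-16 it passed at -4.34. SLC30A4, a zinc transporter, ran from 15.1 to 174 (median 56.3) in BEX3-silent lines, against 177 to 824 (median 354) in BEX3-expressing lines. Its sides just did not overlap, which held for 3 genes lower in silent lines (0.0225% of those tested: MAP3K21, PPM1E and SLC30A4) and for 2 higher (0.0150%). The difference was -2.40 ± 0.43 (limma adjusted p = 0.12).

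SCRN1, a secernin linked to exocytosis, was at most 17.4 in silent lines and had a median of 468 in expressing lines, where P12-ICHIKAWA read 15.1; it passed only without that line. PFN2, an actin-binding profilin best known from neurons, had a median of 18.5 in silent and 672 in expressing lines, a difference of -3.66 ± 0.71, with KOPT-K1 the high silent line at 256. NEO1, the netrin and RGM receptor neogenin, had a median of 17.4 in silent and 212 in expressing lines, a difference of -2.32 ± 0.52, and MOLT-16 reached 199.9 in silent lines. NEO1 passed without MOLT-16, at -2.77. KCTD12, an auxiliary subunit of GABA-B receptors, differed by -2.16 ± 0.50, LAMP3, a lysosomal membrane protein of dendritic cells, by -2.25 ± 0.53, and ZSWIM6 by -1.95 ± 0.47. The remaining 3 were FBXW9, an F-box protein, PRRT3 and ARMC9, a protein of cilia, with -0.68, -1.27 and -1.13. Over these 12 genes, the smallest limma adjusted p was 0.087 and the largest 0.5.

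Among genes higher in silent lines no gene was called, and the 15 with the smallest p-values had mostly small differences. TARP, a transcript of the T-cell receptor gamma locus, stood out by size: it ran from 111 to 709 (median 402) in BEX3-silent lines, against 30.1 to 210.3 (median 49.8) in BEX3-expressing lines. PEER was the highest expressing line and overlapped the lower silent lines, and CCRF-CEM at 147 also lay above MOLT-16 at 111. The difference was 2.11 ± 0.42 (limma adjusted p = 0.2), and without MOLT-16 it passed at 2.39. TPP1, the lysosomal tripeptidyl peptidase, ran from 1171 to 2076 (median 1597) in BEX3-silent lines, against 545 to 1146 (median 926) in BEX3-expressing lines, and KIZ, a centrosomal protein, ran from 1455 to 2132 (median 1700.5) in BEX3-silent lines, against 716 to 1385 (median 1049) in BEX3-expressing lines. These were the 2 genes whose sides did not overlap in this direction. Their differences were 0.88 ± 0.18 and 0.73 ± 0.15 (limma adjusted p = 0.2 and 0.29).

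The other 12 lay between 0.17 and 1.13, with limma adjusted p from 0.87 to 0.88. TRANK1, a large ankyrin-repeat protein, had a median of 439 in silent and 189 in expressing lines, a difference of 1.13 ± 0.33. DGKZ, the diacylglycerol kinase that dampens T-cell receptor signalling, had a median of 3098 in silent and 1786 in expressing lines, a difference of 0.78 ± 0.23, and BIRC5, the mitotic survival protein survivin, a median of 4790.2 in silent and 3556 in expressing lines, a difference of 0.39 ± 0.11. On the probe set with the highest SD, DGKZ and BIRC5 differed the other way, by -0.33 and -0.40. SLF2, which helps recruit SMC complexes to damaged DNA, RALGDS, an exchange factor for Ral GTPases, and DDHD1, a phospholipase, differed by 0.71, 0.73 and 0.58. The sorting nexin SNX3, the translocon-associated SSR1, the glutamine transporter SLC1A5, the glycosyltransferase OGT, TMEM230 and the initiation factor EIF1 differed by 0.50, 0.42, 0.40, 0.33, 0.29 and 0.17.

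**Figure D4:**
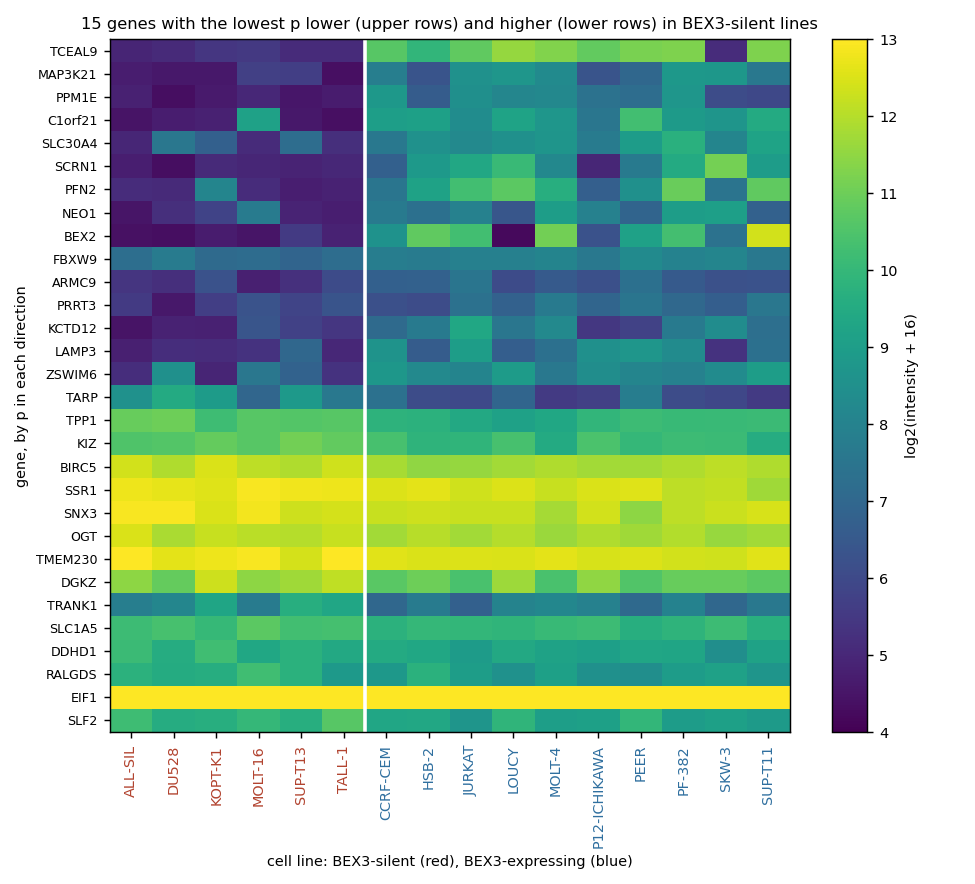
Heat map of the 15 lowest-p genes of either direction, with BEX3-silent lines in the left columns and BEX3-expressing lines in the right, coloured by log2(intensity + 16), on a scale that ends at 13. The upper 15 rows were lower in silent lines and the lower 15 higher. Exceptions within sides, such as C1orf21 in MOLT-16 and TCEAL9 in SKW-3, appear as single cells against their side's colour.

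Because BEX3 acts beside the p75 receptor in cell death, the genes of that pathway were described next. No list outside the TCEAL family held a called gene, so the counts below are at an unadjusted limma p below 0.05, against 3.09% lower and 2.22% higher of all genes. Of 15 tested genes of the p75 neurotrophin receptor pathway, 1 was lower and 1 higher, with a median of -0.093, 10 members below 0 and 5 above. The members named here all had differences below 0. RTN4R, the Nogo receptor that partners p75, had a median of 27.5 in silent and 73.2 in expressing lines, a difference of -1.004 ± 0.36. NDN, necdin, a growth suppressor that binds p75, differed by -2.37 ± 1.28: it was 11.7 to 19.4 in 4 silent lines, 1067 in KOPT-K1 and 878 in SUP-T13, against a median of 1291 and a low of 11.8 in LOUCY in expressing lines. The neurotrophin receptor NTRK3 differed by -0.60 ± 0.72.

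The BCL2 family and caspases, the core of the mitochondrial death pathway, had 0 lower and 3 higher of 29 tested, with a median of -0.023. The 3 were BIRC5, already described, and BMF and BCL2L11, which encode the death-promoting BH3-only proteins BMF and BIM. BMF had a median of 135 in silent and 55.1 in expressing lines, a difference of 1.25 ± 0.46, and BCL2L11 a median of 1302 in silent and 531 in expressing lines, a difference of 0.97 ± 0.38. BCL2 itself, which blocks that pathway, had a median of 1445 in silent and 754 in expressing lines, a difference of 1.10 ± 0.76, with SUP-T11 at 13.9, and BIK, another BH3-only gene, differed by -1.13 ± 0.59. In each of these the sides overlapped.

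No gene of the DNA methylation and Polycomb lists passed the test. Of 18 DNA methylation genes tested, 0 were called and 0 had an unadjusted limma p below 0.05, with a median of 0.077, and the same held for 14 Polycomb genes, with a median of 0.027. The members with the largest differences were APOBEC3B, a cytidine deaminase (0.96 ± 1.41), the demethylase gene TET3 (0.32 ± 0.16), HELLS, a helicase needed for methylation (0.23 ± 0.14), and the methyl-CG reader MBD2 (0.19 ± 0.13). EZH2, the Polycomb methyltransferase, was expressed in all silent lines at 1577 to 3536. In expressing lines it was 12.2 in LOUCY and had a median of 2754; its difference of 0.55 became -0.11 without LOUCY. PHF6, a chromatin protein often mutated in T-ALL, was low in the silent line TALL-1 at 803, and differed by -0.46 ± 0.27. PHF19 and EED, which act with EZH2, differed by 0.21 ± 0.45 and -0.18 ± 0.13, and without DU528 PHF19 stood at -0.053.

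The T-ALL transcription factors named here were each high in lines of both sides. Of 23 listed T-ALL transcription factors, 19 were measured and 10 tested. A factor above the table median in fewer than 3 lines was not tested. Of the 10, 0 were called and 0 had an unadjusted limma p below 0.05, with 5 differences below 0 and 5 above. TAL1, a helix-loop-helix factor switched on in many T-ALL cases, was high in silent SUP-T13 at 869 and MOLT-16 at 425, and highest in JURKAT at 3586 among expressing lines, a difference of -1.61 ± 1.22. MYC was 3638 to 9553 in silent lines, against 23.6 in LOUCY and a median of 5489 in expressing lines. MEF2C was highest in DU528 at 927 among silent and in LOUCY at 4433 among expressing lines, and MYCN likewise at 5120.4 and 4138. The MEF2C difference of 0.67 changed sign without DU528, and the MYCN difference of -0.48 without LOUCY. Among 16 partners and targets of TAL1, 1 was lower and 1 higher at an unadjusted p below 0.05. RUNX3, a T-cell Runt factor, had a median of 3339 in silent and 657 in expressing lines, a difference of 2.42 ± 0.97, and TCF4, an E protein that pairs with TAL1, a median of 28.0 in silent and 565 in expressing lines, a difference of -1.97 ± 0.85. ID3, an inhibitor of E proteins, differed by -1.37 ± 0.75 and RUNX2 by -0.45 ± 1.09.

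JAK-STAT and cytokine output, the genes that report interleukin signalling, had 15 of 19 differences above 0, with a median of 0.32. At an unadjusted limma p below 0.05, 3 were higher (PIM1, IL2RB and IL2RA) and 0 lower, and none was called. PIM1, a kinase induced by STAT5, ran from 46.8 to 4540.4 (median 2288) in BEX3-silent lines, against 50.7 to 5131 (median 125) in BEX3-expressing lines, and HSB-2 was the high expressing line. The interleukin receptor chain IL2RB had a median of 1872 in silent and 364 in expressing lines, a difference of 2.34 ± 0.96. IL2RA, the alpha chain of the interleukin-2 receptor, was chosen after its value was seen. It had a median of 36.7 in silent and 26.9 in expressing lines, a difference of 0.53 ± 0.19. Both medians lay below the table median of 42.4, and the highest expressing value was 33.8. IL2RA entered the test only through the silent lines DU528 (68.3), KOPT-K1 (54.4) and SUP-T13 (43.0), so its direction lends the count no support. The feedback inhibitors CISH and SOCS2 had differences of 2.11 ± 1.02 and 1.49 ± 0.99. In PIM1, IL2RB, CISH and SOCS2 HSB-2 was the highest expressing line, with 5131 for PIM1, 2803 for IL2RB, 5856 for CISH and 3036 for SOCS2. The NOTCH1 pathway had 0 of 20 at that limit and a median of 0.13. NOTCH1 itself, the receptor mutated in many T-ALL cases, had a median of 3311 in silent and 1432 in expressing lines, a difference of 1.22 ± 0.74, and its targets DTX1 and IL7R differed by 1.25 ± 1.16 and 1.19 ± 0.98.

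Most genes that mark cortical thymocytes had differences below 0, and none was called. Of 14 cortical thymocyte genes, 12 had differences below 0, against 48.3% of all genes tested, with a median of -1.04, and 0 reached an unadjusted limma p below 0.05. The lipid-presenting molecules CD1C, CD1E and CD1A differed by -1.81 ± 1.12, -1.70 ± 1.88 and -1.26 ± 1.24, and the recombinase RAG1 by -1.33 ± 1.42. Both sides held lines with and without these genes: CD1E reached 7569 in silent KOPT-K1, and was 4.49 in expressing LOUCY. Of 17 genes of the T-cell receptor complex and its signalling, 1 (CD28) was lower and 0 higher at that limit, and 13 lay below 0. CD28, the costimulatory receptor, had a median of 30.9 in silent and 623 in expressing lines, a difference of -2.51 ± 0.93, while the surface regulators CD5 and CD6 and the adaptor LAT differed by -1.22, -1.19 and -0.78.

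Imprinted genes, which carry parental methylation marks, had a median of -0.56 over 11 tested, with 1 lower (MEST) and 0 higher at an unadjusted limma p below 0.05. MEST was 8.29 to 18.4 in silent lines, against 2.03 to 4823 (median 88.8) in expressing lines. PEG10 and its neighbour SGCE stayed at or below 13.3 and 14.1 in all silent lines, and in expressing lines reached 1704 and 864 in SUP-T11, with medians of 14.1 and 14.5. MEST, PEG10 and SGCE were below the table median in every silent line and entered the test only through expressing lines. Their direction therefore lends the list median and count no support. Neuronal markers, included because BEX genes are brain-rich, had 1 of 6 lower (ENO2, -1.27 ± 0.59) and a median of -0.0078. The others named were UCHL1 (-0.70 ± 0.85), SYT1 (0.21 ± 0.58) and TUBB3 (0.12 ± 0.15), and the neuron-defining ELAVL3, ELAVL4, STMN2 and SNAP25 were never above 4 times the table median. Cytotoxic genes had 1 of 6 higher (GZMB, 0.97 ± 0.45), with the highest silent value in SUP-T13 at 634, while NKG7, PRF1 and GZMA differed by 1.79, 0.66 and 0.32.

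The remaining lists held no called gene. Their medians were, over the genes tested, progenitor genes -0.061 (13 tested), the GIMAP cluster of lymphocyte GTPases 0.53 (7 tested), HLA class I presentation 0.10 (12 tested) and T-ALL tumour suppressors 0.10 (21 tested). At an unadjusted limma p below 0.05 these 4 lists had 0 members. Serine synthesis and ATF4 targets had a median of 0.10 over 15, with 12 differences above 0 and 1 member higher at that limit, SHMT2, the mitochondrial serine hydroxymethyltransferase (0.47 ± 0.21), which was chosen after its value was seen. The medians were, for cancer-testis genes of the X chromosome 0.19 over 3, and for housekeeping genes 0.024 over 8, with 0 members at that limit. Proliferation genes had 15 of 16 differences above 0, against 51.7% of all genes tested, with a median of 0.11 and 1 higher at an unadjusted limma p below 0.05, the mitotic kinase AURKB (0.43 ± 0.20). B-cell, myeloid, erythroid and megakaryocytic, and stromal markers had medians of -0.90, 0.42, -0.00193 and -0.045, with 0 members at that limit.

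**Figure D5:**
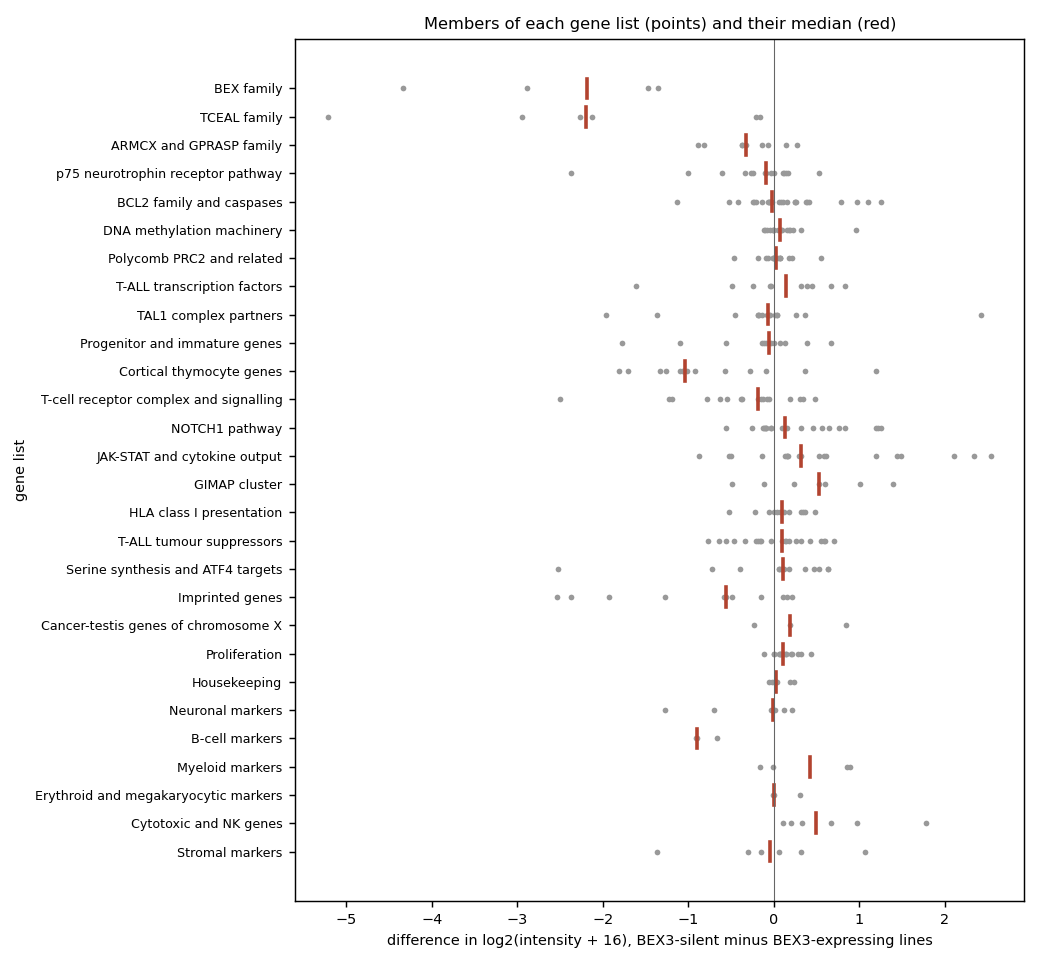
Differences of BEX3-silent minus BEX3-expressing lines in log2(intensity + 16) for the tested members of each gene list, 1 point per gene with the list median marked in red and a line at 0. The BEX and TCEAL families have medians of -2.18 and -2.20.

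The split was also set against the arrays' own measures and the main axes of variation. The array median was lower in silent lines, at 40.8 ± 2.31, than in expressing lines, at 43.4 ± 0.934 (SD over lines). This passed a two-sided exact permutation test over all assignments of 6 of 16 lines (p = 0.002, adjusted p = 0.012 over 6 measures), and with every array centred on its median, and with quantile normalization, the same 3 genes were called. The hybridisation spikes were at 11.5 ± 0.154 in silent and 11.4 ± 0.0721 in expressing lines on the log2 scale (exact permutation p = 0.032, adjusted p = 0.096). The poly-A spikes averaged 8.17 ± 0.293 in silent and 7.98 ± 0.118 in expressing lines (exact permutation adjusted p = 0.16). The part of the spikes in the gene differences was not tested. The ACTB control ratio (3' over 5' probe set) was 1.65 ± 0.184 in silent and 1.69 ± 0.201 in expressing lines (exact permutation adjusted p = 0.85). Of the first 5 principal components over the genes tested, none passed: the nearest was the fifth, with 7.88% of the variance (exact permutation p = 0.013, adjusted p = 0.065), and the first, with 17.1%, had an exact permutation adjusted p of 0.85. The smallest adjusted p did pass with quantile normalization and in 7 of 16 repeats that left out 1 line.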

How the data were processed

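The deposited table holds, per the labels and the values themselves, 1 intensity per probe set and array on a linear scale, from 54675 probe sets on 16 arrays. What software and scaling the authors applied is not given in the sources used here, and no further normalization was applied. Array medians ran from 37.6 to 45.0. Probe sets were named through the platform annotation: 41037 had 1 gene of the RefSeq annotation and 1801 had several and were not used. Each of 19735 genes was represented by its probe set with the highest mean. A gene was tested if at least 3 lines exceeded the median of the table (42.4), which left 13311 genes tested and 6424 not. A gene below that median in all lines of 1 side entered the test only through the other side. The direction of such a gene is no support by itself.

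The 6 silent and 10 expressing lines were split by BEX3, as the labels give 1 group; the members, lists and tests were chosen with earlier results of these data known. Differences were tested in R 4.3.3 with limma 3.58.1, with a trended prior and robust weights, on log2(intensity + 16), adjusted by Benjamini and Hochberg over all genes tested, with BEX3 left out. Array measures and 5 principal components had exact permutation tests. Other steps used Python 3.11.15. In simulated data 200 of 13311 genes, drawn at random, were changed by 1, 2 or 4 log2 units. The limma step recovered 57.5%, 87.0% and 96.5%, with 7, 13 and 14 false calls. The simulated noise was normal and independent between genes, with each gene's own SD. In the real comparison 534 genes were lower and 178 higher by at least 1 log2 unit, and 3 were called. The simulated shares therefore do not carry over to genes that vary widely between lines.

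Named genes are all BEX, TCEAL, ARMCX and GPRASP members, the 15 lowest-p genes in either direction, and the 4 members with the largest difference in 13 of 28 lists, of which 1 is not reported here; the other lists are given by counts. Lists held 419 genes, of which 377 were measured. The alternatives were other pseudocounts, array centring, quantile normalization, other filters, other probe set choices, limma without trend or robust weights, leaving out _x_at probe sets (those whose probes may match several transcripts), the ACTB ratio as a covariate, leaving out DU528 and LOUCY together and leaving out each line. Promoter windows are those of RefSeq on GRCh38.p14, and 13 of 14 genes looked up had one.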

Additional observations from a re-analysis of the deposited data

Results flagged for a closer look

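Values were looked at again where 1 line stood apart from the others of its side by Dixon's criterion on the log2 scale (its gap to the nearest line, as a share of the side's range, above the 95% critical value). BEX3 was left out, since it chose the sides. The critical value is set to flag about 1 in 20 groups of independent, normally spread values. Many of these genes were chosen for large differences or low p-values, and several were on or off. That rate is therefore no measure of chance here. Of 204 groups (102 genes on 2 sides), 31 met the criterion, which is 15.2%. Of these 13 were on the silent side and 18 on the expressing side. Intensities are given in parentheses, and the causes were not tested.

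Among silent lines, ALL-SIL was lowest for RAB40A (12.2). KOPT-K1 was highest for TCEAL3 (85.2), PFN2 (256) and CD1C (573). MOLT-16 was highest for BEX5 (2585), TCEAL7 (17.1) and C1orf21 (548). MOLT-16 was lowest for ARMCX5 (4.09) and RUNX3 (791). SUP-T13 was highest for BEX1 (62.7) and LAMP3 (113). TALL-1 was highest for ARMCX2 (625). TALL-1 was lowest for PHF6 (803).

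Among expressing lines, CCRF-CEM was highest for SYT1 (142). HSB-2 was highest for PIM1 (5131). HSB-2 was lowest for TCF4 (12.7). JURKAT was lowest for ARMCX5 (4.60). LOUCY was highest for ARMCX1 (614) and MEF2C (4433). LOUCY was lowest for EZH2 (12.2) and MYC (23.6). SKW-3 was lowest for TCEAL4 (28.1), TCEAL9 (19.4) and DDHD1 (333). SUP-T11 was highest for TCEAL2 (119), RTN4R (282), ID3 (12960) and UCHL1 (3669). SUP-T11 was lowest for BCL2 (13.9), TET3 (534) and NOTCH1 (36.3).

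SKW-3, the expressing line with the least BEX3, stood apart for TCEAL4 and TCEAL9, both neighbours of BEX3, and for DDHD1. On the silent side MOLT-16 stood apart for the most genes, and on the expressing side SUP-T11.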

How the results depend on the processing

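The count of 3 called genes stayed at 3 under 9 of 12 other settings and was 2 on the mean of all probe sets, without PPM1E. It fell to 1 (TCEAL9) on log2(intensity + 64) and to 0 without DU528 and LOUCY, where limma gave 718 genes at an unadjusted p below 0.05. Leaving out 1 line gave 0 to 8 called genes: 0 without ALL-SIL, DU528, KOPT-K1, SUP-T13, TALL-1 or MOLT-4 (587 to 758 genes at an unadjusted p below 0.05), and 8 without MOLT-16. Genes off on one side and on at the other numbered 0 to 1 when 1 line was left out (C1orf21 without MOLT-16, TCEAL9 without SKW-3). The smallest adjusted p over the principal components was 0.065, passed the threshold at 0.0425 with quantile normalization, and ran from 0.0183 to 0.183 when 1 line was left out; that of the array measures ran from 0.004 to 0.034. Among the named genes, differences of some uncalled genes changed sign: ARMCX6 to 0.00318 with centred arrays, BIRC5 to -0.40, DGKZ to -0.33 and MORF4L2 to -0.28 on the probe set with the highest SD, MORF4L2 to -0.21 and RUNX2 to 0.058 on the mean of all probe sets, MORF4L2 to -0.040 with quantile normalization, and EZH2 to -0.019 and RUNX2 to 0.11 without DU528 and LOUCY. When 1 line was left out, sign changed within these ranges of the difference: TCEAL8 -0.35 to 0.068, ARMCX2 -0.61 to 0.44, ARMCX5 -0.81 to 0.49, ARMCX6 -0.20 to 0.10, EZH2 -0.11 to 0.69, PHF19 -0.053 to 0.62, MEF2C -0.026 to 1.39, MYCN -1.62 to 0.059, RUNX2 -1.15 to 0.032, SYT1 -0.44 to 0.46, TUBB3 -0.0066 to 0.20, GZMA -0.42 to 1.05 and MORF4L2 -0.086 to 0.070. The causes were not tested. The limits are 1 array per line, 6 lines on 1 side, unknown upstream scaling, and values near 0 intensity, where differences depend on the pseudocount.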
